A study of Rattus norvegicus with 8 samples.

Results

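The miR-15/16 seed family and the locus of miR-322, miR-503 and miR-351 were described in rat C6 cells treated with antipsychotic drugs. The members are the 5p arms of rno-miR-15b, rno-miR-16, rno-miR-195, rno-miR-322, rno-miR-497, rno-miR-503 and rno-miR-351, plus rno-miR-351-3p. They were chosen by name, and all 8 names were among the 719 miRNAs on the array. C6 is a single cell line, derived from a rat glial tumour and labelled glioblastoma. Its cells received 2 µg/ml haloperidol, 4 µg/ml risperidone or 25 µg/ml clozapine every day for 5 days, or were left untreated as controls. Haloperidol is a first-generation antipsychotic that blocks dopamine receptors, and risperidone and clozapine are second-generation drugs that also block serotonin receptors. Each of the 4 groups had 2 arrays, 8 in all, hybridised with Cy3-labelled total RNA (100 ng per array). The 2 arrays are described as biological repeats, so the p-values below measure the spread between such repeats. The concentrations differ between drugs, so each drug was tested against control only, and the values of the drugs are given side by side.

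A miRNA guides the silencing complex to messenger RNAs that pair with its seed, the bases near its 5′ end, so miRNAs with a common seed share many targets. The miR-15/16 family is known for holding cells in the G1 phase of the cell cycle, through targets such as cyclin D1, cyclin E1 and CDK6, and for lowering the survival protein BCL2. miR-322, the rodent counterpart of human miR-424, and miR-503 are made from a common precursor and are known in mouse muscle precursors to lower the phosphatase CDC25A as cells leave the cycle. miR-351 lies at the same locus but carries the seed of the miR-125 family.

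The mature sequences show which members can be read as a family. They are from RefSeq (rat build GRCr8), 5′ to 3′, with the seed (bases 2 to 8) in capitals. RefSeq held all 8 of 8 members and 641 of the 719 array names, and seeds were compared among these 641. The first group below has the seed AGCAGCA, which 5 of the 641 share.
rno-miR-15b-5p: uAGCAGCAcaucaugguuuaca
rno-miR-16-5p: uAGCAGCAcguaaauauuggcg
rno-miR-195-5p: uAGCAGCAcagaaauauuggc
rno-miR-497-5p: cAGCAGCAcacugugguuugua
rno-miR-322-5p: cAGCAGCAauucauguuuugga

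rno-miR-503-5p differs from this group in the last base of its seed, and no other named array miRNA matched to RefSeq had its seed.
rno-miR-503-5p: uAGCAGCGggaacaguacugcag

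rno-miR-351-5p has another seed, shared with rno-miR-125a-5p and rno-miR-125b-5p, and rno-miR-351-3p has a seed of its own. These are shown because the label of the family does not extend to them by sequence.
rno-miR-351-5p: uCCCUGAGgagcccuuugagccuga
rno-miR-125a-5p: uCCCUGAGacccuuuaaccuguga
rno-miR-125b-5p: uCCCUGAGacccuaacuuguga
rno-miR-351-3p: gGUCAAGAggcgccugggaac

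Aligned from the 5′ end without gaps, rno-miR-16-5p and rno-miR-195-5p were equal at 19 of 21 positions. Whether their probes bind each other's target was not tested. rno-miR-15b-5p equalled rno-miR-497-5p at 16 of 22 positions and rno-miR-16-5p at 14 of 22, and rno-miR-322-5p equalled rno-miR-503-5p at 11 of 22.

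The members come from 3 loci in GRCr8. rno-miR-15b-5p (chr2:155555197-155555218, plus strand) and rno-miR-16-5p (chr2:155555343-155555364, plus strand) lie within the span of Smc4, a condensin subunit gene. rno-miR-497-5p (chr10:55450172-55450193, plus strand) and rno-miR-195-5p (chr10:55450509-55450529, plus strand) have hairpins 255 bases apart, and neither lies wholly within another annotated gene. rno-miR-322-5p (chrX:137726198-137726219), rno-miR-503-5p (chrX:137725899-137725921), rno-miR-351-5p (chrX:137725157-137725181) and rno-miR-351-3p (chrX:137725121-137725141) are on the minus strand, within the span of the long noncoding RNA gene LOC102550366. Along that strand the Mir322 hairpin comes first, then Mir503 after 220 bases, then Mir351 after 659 bases. Both arms of Mir322 and of Mir351 were measured, so their hairpins are shown with the 5p and 3p arms in capitals.
Mir322: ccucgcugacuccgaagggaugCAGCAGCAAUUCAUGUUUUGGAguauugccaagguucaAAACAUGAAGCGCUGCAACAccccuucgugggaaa
Mir351: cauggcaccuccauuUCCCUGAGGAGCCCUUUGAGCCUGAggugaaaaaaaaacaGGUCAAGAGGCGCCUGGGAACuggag

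Levels below are log2 of the miRNA's background-subtracted intensity divided by the array's 75th percentile of bright probes, so 0 is that percentile. Intensities below 0.0134 of the percentile were set to a floor of -6.22. Levels of different miRNAs come from different probes and are not ranked against each other. The haloperidol arrays detected 254 and 242 miRNAs, the risperidone arrays 249 and 193, the clozapine arrays 233 and 203 and the control arrays 249 and 242. Risperidone replicate 2 and clozapine replicate 2 also had the lowest labelling spike-in signals (log10 of 2.73 and 2.88). Over all miRNAs, control replicate 1 deviated most from the rest (mean squared deviation on the log2 scale 0.544), and the other 7 arrays had values of 0.0893 to 0.297. All arrays lay on 1 slide, where the treatment group and the slide column cannot be told apart. The glioma-raised miR-21-5p was detected on all 8 arrays at 6.72 to 7.64, and miR-125b-5p, miR-221-3p and miR-222-3p of the same list also on 8. With every drug miR-21-5p had a log2 fold change above 0, and the others of that list had values below 0. The neuronal miR-124-3p and all 4 of 4 epithelial miR-200 family markers were detected on 0 arrays. Some markers of other cell types were detected, namely the endothelial miR-126a-3p on 8 arrays, the muscle miR-206-3p on 5, and the leukocyte miR-223-3p on 4 and miR-142-3p on 3. The erythrocyte miR-451-5p was detected on 2. Others of the same lists, the muscle miR-1-3p and miR-133a-3p, the leukocyte miR-142-5p and the erythrocyte miR-144-3p, were detected on 0 arrays. The oligodendrocyte miR-338-3p was detected on 8, and its arrays lay above both controls with every drug (background 11.5%, 7.00% and 5.35% with haloperidol, risperidone and clozapine). Its log2 fold change was 1.02, 1.09 and 1.08 with haloperidol, risperidone and clozapine (SE 0.36), with adjusted limma p of 0.581, 0.454 and 0.326. The other arm, miR-338-5p, had log2 fold changes of -1.17 with risperidone and -1.26 with clozapine, in a fit with replicate number as block. The other listed oligodendrocyte marker, miR-219a-5p, was not on the array under that name. rno-miR-219-5p was on the array but was not examined as a marker. The part of these markers in the results below was not tested.

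Of the 8 members, 6 were detected on all 8 arrays, rno-miR-497-5p on 7 and rno-miR-351-3p on 5. All 8 were among the 243 miRNAs tested with limma (lmFit and eBayes over all 8 arrays, Benjamini-Hochberg adjustment over the 243, threshold 0.05). No member passed in any comparison, and neither did any other miRNA, which is 0% of those tested for each drug and for the F test over the 4 groups. Over all miRNAs, the smallest adjusted p of limma was 0.581 for haloperidol, 0.243 for risperidone, 0.270 for clozapine and 0.677 for the F test. At an unadjusted p under 0.05, limma gave 1 member with haloperidol, against 6.58% of all tested miRNAs. It gave 1 member with risperidone, against 8.64%, 1 with clozapine, against 14.8%, and 1 in the F test, against 3.29%. With 8 members, such counts lie near the background.

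**Figure D1:**
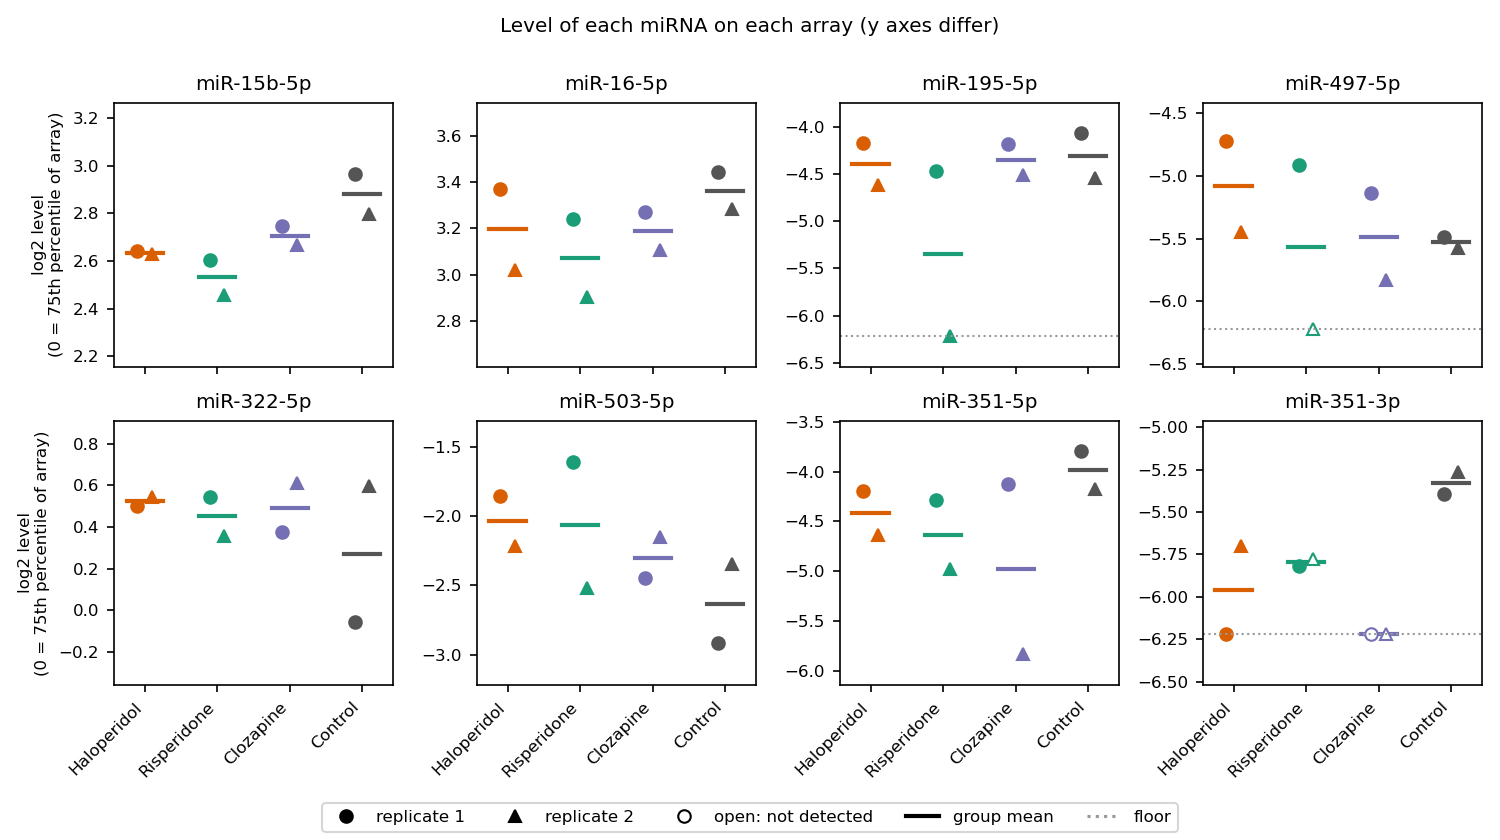
Log2 level of each of the 8 miRNAs (y axis, 0 is the array's 75th percentile, scales differ between panels) by group (x axis). Points are single arrays, circles replicate 1 and triangles replicate 2, open where the miRNA was not detected, bars are group means of 2 arrays, and the dotted line is the floor. The drug arrays of miR-15b-5p and miR-351-3p all lie below both control arrays, while those of miR-322-5p lie between or beside controls that are far apart. With single drugs, 32.1% to 33.7% of all tested miRNAs lay below both controls.

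The members had values on both sides of 0 with each drug. With haloperidol 3 of 8 had a log2 fold change above 0, with risperidone 2 and with clozapine 3. Over all 243 tested miRNAs 92, 93 and 77 were above 0 with the same drugs, so the members' counts lie near the background. Their median log2 fold change came to -0.13, -0.32 and -0.11 with haloperidol, risperidone and clozapine, beside -0.15, -0.15 and -0.17 over all 243 miRNAs. The 6 members that carry the AGCAGCA seed or that of rno-miR-503-5p had medians of 0.08, -0.16 and 0.00 for the same drugs. The arrays of haloperidol and control did not overlap for 5 members, 2 higher with the drug (background 11.5% of all tested miRNAs) and 3 lower (background 32.1%). With risperidone 0 members were higher without overlap (background 7.00%) and 4 lower (32.9%). With clozapine 0 were higher (5.35%) and 3 lower (33.7%). With 8 members, 3 or 4 lower lie near those background shares.

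rno-miR-15b-5p and rno-miR-16-5p, the pair in Smc4, lay above the 75th percentile on every array and varied little between arrays. rno-miR-15b-5p had log2 levels of 2.64 and 2.63 with haloperidol, 2.61 and 2.46 with risperidone, 2.75 and 2.67 with clozapine, against 2.96 and 2.80 in controls. All 6 drug arrays were thus below both controls. The comparisons share these controls, and the share over all miRNAs that were lower with every drug was not computed. With single drugs, 32.1%, 32.9% and 33.7% of all tested miRNAs were lower without overlap with haloperidol, risperidone and clozapine. rno-miR-125a-5p, rno-miR-98-5p and rno-miR-221-3p, which are not members, were lower with every drug too. From the lowest mean of rno-miR-15b-5p to the highest the order was risperidone, haloperidol, clozapine and control. Means of neighbouring drugs in that order lay closer than the standard error of a difference, 0.13. Relative to control, the log2 fold change came to -0.25 with haloperidol (95% interval -0.57 to 0.08), -0.35 with risperidone (-0.68 to -0.02) and -0.17 with clozapine (-0.50 to 0.16). The risperidone difference had an unadjusted limma p of 0.0415, rank 16 of 243, and an adjusted p of 0.454. With clozapine the log2 fold change equalled the median of all tested miRNAs, and with haloperidol it was 0.10 below that median.

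rno-miR-16-5p had log2 levels of 3.37 and 3.02 with haloperidol, 3.24 and 2.90 with risperidone, 3.27 and 3.11 with clozapine, against 3.44 and 3.28 in controls. Risperidone and clozapine arrays lay below both controls, and haloperidol arrays overlapped them. Neighbouring groups in the order risperidone, clozapine, haloperidol and control, lowest first, overlapped in each case. Its log2 fold changes were -0.17, -0.29 and -0.17 with haloperidol, risperidone and clozapine (SE 0.20), with adjusted limma p of 0.689, 0.521 and 0.684. On the unscaled intensity scale of the deposited gene-level values, rno-miR-16-5p read 10366 and 5350 with haloperidol, 6972 and 1989 with risperidone, 5214 and 3991 with clozapine, against 7828 and 6391 in controls. The 2 arrays with the lowest labelling spike-in signals had the lowest intensities. The scaling divides out a common factor per array, but risperidone replicate 2 was still the lowest array after it, at 2.90.

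The log2 level of rno-miR-16-5p minus that of rno-miR-15b-5p on the same array does not depend on the percentile used for scaling. It averaged 0.56, 0.54 and 0.48 with haloperidol, risperidone and clozapine, against 0.48 in controls. The drug groups overlapped the controls for each drug, so the ratio of the pair differed by less than the spread of the arrays. With the percentile over all probes, which also moved the median of all miRNAs above 0, rno-miR-15b-5p and rno-miR-16-5p had log2 fold changes of 0.24 and 0.30 with risperidone and 0.47 each with clozapine.

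rno-miR-195-5p and rno-miR-497-5p, the chromosome 10 pair, are studied as restraints on growth in human tumours and lay close to the floor here. rno-miR-195-5p had log2 levels of -4.17 and -4.62 with haloperidol, -4.46 and -6.22 with risperidone, -4.18 and -4.51 with clozapine, against -4.06 and -4.54 in controls. Each drug group overlapped the controls, and the value at the floor was on risperidone replicate 2, the dimmest array. For haloperidol, risperidone and clozapine in turn, the log2 fold change was -0.09, -1.04 and -0.04 (SE 0.59), with adjusted limma p of 0.974, 0.511 and 0.986. Without risperidone replicate 2 the risperidone value was -0.16. Of its 2 probes, 1 was well above background on 7 arrays and the other on 1, and the first alone gave -0.09, -0.63 and 0.02, so the clozapine sign turned.

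rno-miR-497-5p had log2 levels of -4.72 and -5.45 with haloperidol, -4.91 and -6.22 with risperidone, -5.14 and -5.83 with clozapine, against -5.48 and -5.58 in controls. It was not detected on risperidone replicate 2. The haloperidol arrays lay above both controls, and the other groups overlapped them. Its log2 fold changes were 0.45, -0.04 and 0.05 with haloperidol, risperidone and clozapine (SE 0.51), with adjusted limma p of 0.689, 0.970 and 0.981. Of its 2 probes, 1 was well above background on 6 arrays and the other on 1, and the first alone gave 0.50, 0.29 and 0.19, so the risperidone sign turned. The intervals of rno-miR-195-5p and rno-miR-497-5p reach beyond 1 log2 unit in at least 1 direction for every drug, so a 2-fold change could not be told from no change for them on 2 arrays per group.

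rno-miR-322-5p and rno-miR-503-5p had mean levels above control with each drug, a difference that rests in large part on control replicate 1. rno-miR-322-5p had log2 levels of 0.50 and 0.54 with haloperidol, 0.55 and 0.36 with risperidone, 0.38 and 0.61 with clozapine, against -0.06 and 0.60 in controls. The controls were farther apart than the 2 arrays of any drug, and every drug group overlapped them. The resulting log2 fold changes were 0.25, 0.18 and 0.22 with haloperidol, risperidone and clozapine (SE 0.24), with adjusted limma p of 0.651, 0.685 and 0.684. Against control replicate 2 alone it was -0.07, -0.15 and -0.10, so the direction turned for each drug when control replicate 1 was left out.

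rno-miR-503-5p had log2 levels of -1.86 and -2.22 with haloperidol, -1.61 and -2.52 with risperidone, -2.45 and -2.15 with clozapine, against -2.92 and -2.35 in controls. The haloperidol arrays lay above both controls, and 1 array each of risperidone and clozapine lay between the controls. In the order haloperidol, risperidone, clozapine and control, highest first, every neighbouring pair of groups overlapped. The log2 fold change was 0.60 with haloperidol (95% interval -0.34 to 1.53), 0.57 with risperidone (-0.37 to 1.5) and 0.33 with clozapine (-0.60 to 1.27). The adjusted limma p was 0.581, 0.521 and 0.684. Against control replicate 2 alone the values were 0.31, 0.28 and 0.05, above 0 but smaller. Both probes of rno-miR-503-5p were well above background on all 8 arrays, and their log2 fold changes were 0.61 and 0.59 with haloperidol and 0.51 and 0.58 with risperidone. For clozapine they were 0.32 and 0.34.

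**Figure D2:**
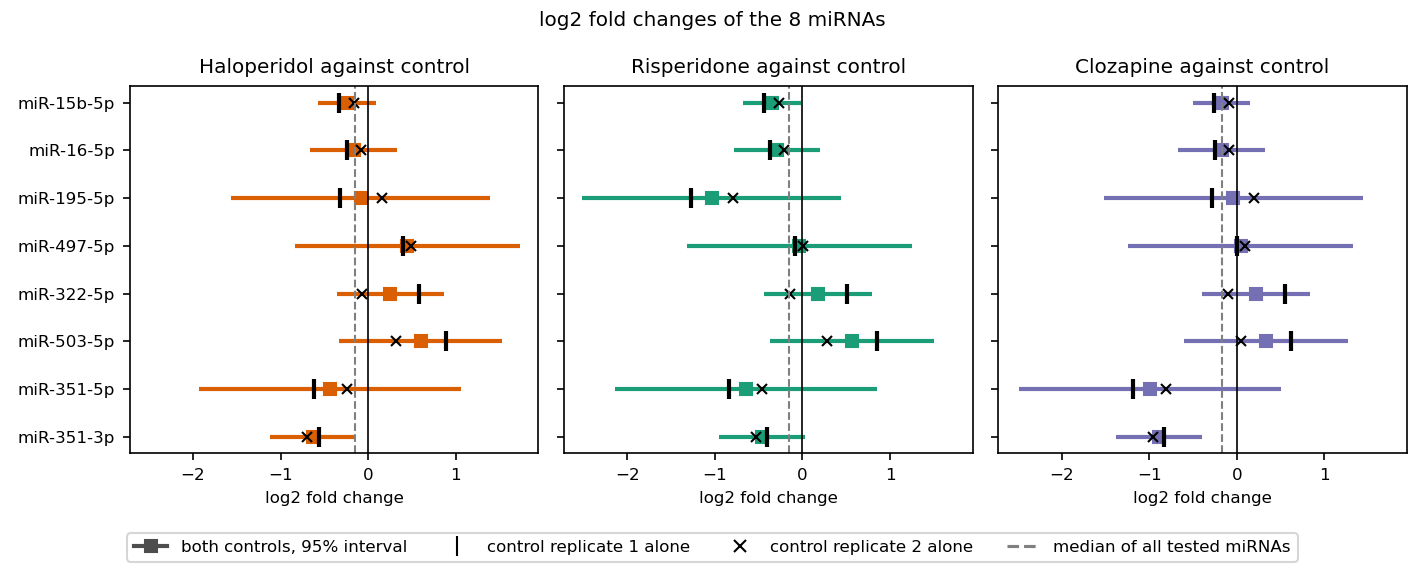
Log2 fold change of each of the 8 miRNAs (x axis) for each drug against control. Squares use both controls, with the 95% interval of limma as a line, vertical ticks use control replicate 1 alone, crosses control replicate 2 alone, and the dashed line is the median of all 243 tested miRNAs. The ticks and crosses of miR-322-5p lie on opposite sides of 0 for every drug, and only miR-351-3p with haloperidol and clozapine and miR-15b-5p with risperidone have intervals that leave out 0.

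The arms of rno-miR-351 had mean levels below control with every drug, and both were dim. rno-miR-351-5p had log2 levels of -4.20 and -4.64 with haloperidol, -4.29 and -4.98 with risperidone, -4.13 and -5.83 with clozapine, against -3.80 and -4.17 in controls. Haloperidol and risperidone arrays lay below both controls, and 1 clozapine array lay between them. The log2 fold change was -0.43, -0.65 and -0.995 with haloperidol, risperidone and clozapine (SE 0.60), with adjusted limma p of 0.719, 0.557 and 0.565. Of its 4 probes, 1 was well above background on all 8 arrays, and that probe's own log2 fold changes were -0.35, -0.15 and -0.35. The values of the whole miRNA thus include probes at background. Without clozapine replicate 2 the clozapine value was -0.14, and with the normexp background correction the risperidone and clozapine values were 0.46 and 0.998.

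rno-miR-351-3p had log2 levels of -6.22 and -5.70 with haloperidol, -5.82 and -5.78 with risperidone, -6.22 and -6.22 with clozapine, against -5.39 and -5.26 in controls. It was detected on both haloperidol arrays, 1 risperidone array, 0 clozapine arrays and both controls. All 6 drug arrays thus lay below both controls, as did those of rno-miR-125a-5p, rno-miR-98-5p and rno-miR-221-3p, which are not members. The background of lower arrays with haloperidol, risperidone and clozapine singly was 32.1%, 32.9% and 33.7%. rno-miR-351-3p had the smallest unadjusted limma p among the members for haloperidol and clozapine. For haloperidol the log2 fold change was -0.63 (unadjusted limma p 0.0204, rank 8 of 243, adjusted p 0.581), and for risperidone it was -0.47 (unadjusted p 0.0582, adjusted p 0.454). With clozapine it was not detected and both arrays stood at the floor, and the control mean lay 1.85-fold above that floor. For this difference the unadjusted limma p was 0.00494, rank 3 of 243, and the adjusted p 0.270. The floor hides spread, so the SE of 0.20 and these p-values may be too low. The 1.85-fold is set by the floor and is no lower limit on the change. With the percentile over all probes the log2 fold change of rno-miR-351-3p with clozapine was -0.78. Of its 2 probes, 1 was well above background on 4 arrays and the other on 0. The first alone gave smaller log2 fold changes, -0.29, -0.17 and -0.36 with haloperidol, risperidone and clozapine. With the normexp correction, which adds a constant to every spot, the log2 fold change of the whole miRNA was 0.49 with risperidone and 1.03 with clozapine.

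**Figure D3:**
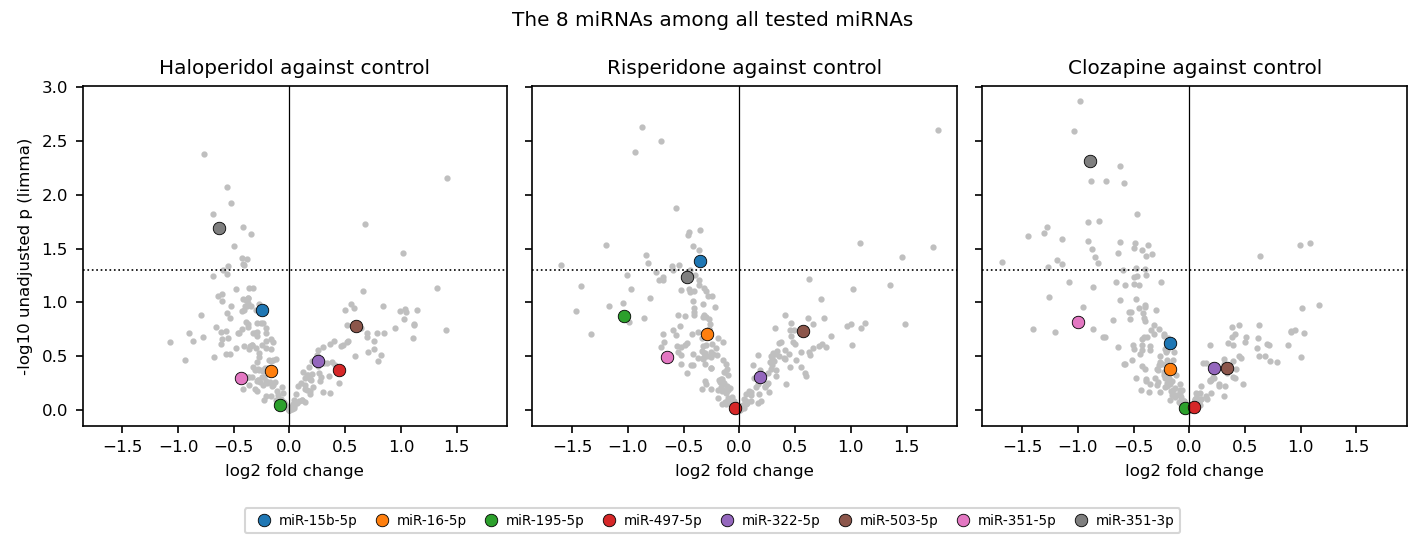
Log2 fold change (x axis) against -log10 of the unadjusted limma p (y axis) for the 243 tested miRNAs, with the 8 members coloured, for each drug against control. The dotted line marks the unadjusted threshold of 0.05. Above it lie miR-351-3p with haloperidol and clozapine and miR-15b-5p with risperidone, each among other miRNAs at the same height.

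At the locus of miR-322, miR-503 and miR-351, differences on the same array show how its miRNAs moved against each other. The array's scale is divided out, but not signal lost to background on a dim array. The log2 level of rno-miR-503-5p minus that of rno-miR-351-5p was 2.34 and 2.42 with haloperidol, 2.68 and 2.46 with risperidone, 1.68 and 3.68 with clozapine, against 0.88 and 1.83 in controls. Haloperidol and risperidone arrays lay above both controls, and 1 clozapine array lay between them. Drug minus control was 1.03, 1.21 and 1.33, and 0.56, 0.74 and 0.85 against control replicate 2 alone. These are descriptions with no test, and other miRNA pairs were not compared. Of the 4 probes of rno-miR-351-5p, 1 was well above background on all 8 arrays. That probe changed by only -0.35, -0.15 and -0.35 with haloperidol, risperidone and clozapine, so the differences rest in part on probes at background. Without clozapine replicate 2 the clozapine difference was 0.33. With the normexp background correction the values were 0.56, 0.20 and -0.19, so the clozapine direction turned.

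The log2 level of rno-miR-503-5p minus that of rno-miR-322-5p averaged -2.56, -2.52 and -2.79 with haloperidol, risperidone and clozapine, against -2.90 in controls. The haloperidol and clozapine arrays lay above both controls, and 1 risperidone array lay between them. Drug minus control was 0.34, 0.39 and 0.11, and with quantile normalization the clozapine value was -0.05. Without risperidone replicate 1 the risperidone value was 0.03.

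The arms of the Mir322 hairpin also differed. rno-miR-322-5p minus rno-miR-322-3p was 2.93 and 3.33 with haloperidol, 2.95 and 3.46 with risperidone, 2.63 and 3.32 with clozapine, against 1.90 and 3.20 in controls. Control replicate 1 had the lowest value of the 8 arrays, and every drug group overlapped control replicate 2. Drug minus control was 0.58, 0.65 and 0.42, and -0.07, 0.00 and -0.23 against control replicate 2 alone.

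**Figure D4:**
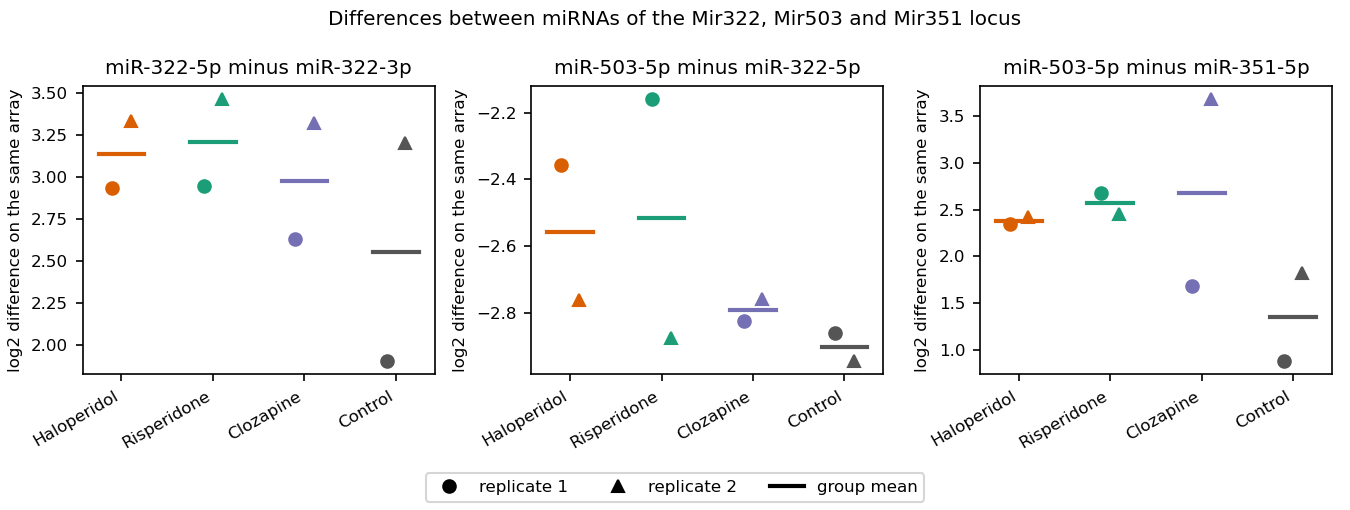
Log2 differences between 2 miRNAs of the locus of miR-322, miR-503 and miR-351 on the same array (y axis, scales differ) by group (x axis). Circles are replicate 1, triangles replicate 2 and bars group means of 2 arrays. In the panel of miR-503-5p minus miR-351-5p the haloperidol and risperidone arrays lie between 2.34 and 2.68, above control values of 0.88 and 1.83. The values of miR-351-5p include probes at background. In the panel of miR-322-5p minus miR-322-3p control replicate 1 stands at 1.90, below the other 7 arrays.

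The other arm of each hairpin besides Mir351 was on the array, and rno-miR-16-3p, rno-miR-195-3p, rno-miR-497-3p and rno-miR-503-3p were detected on 0 arrays. The remaining 2 arms were detected on all 8. rno-miR-15b-3p had a log2 fold change of -0.36, -0.69 and -0.54 with haloperidol, risperidone and clozapine (SE 0.29), with the same sign as rno-miR-15b-5p. rno-miR-322-3p had -0.33, -0.47 and -0.20 (SE 0.36), with the sign opposite to that of rno-miR-322-5p. No other arm passed limma's threshold with any drug.

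The miRNAs that carry the seed of rno-miR-351-5p were bright and also had values below 0. For rno-miR-125a-5p the log2 fold change was -0.39, -0.30 and -0.45 with haloperidol, risperidone and clozapine (SE 0.20). That of rno-miR-125b-5p, abundant in gliomas, was -0.30, -0.28 and -0.23 (SE 0.16), and none passed the threshold. The 3 miRNAs found with this seed thus had negative values with every drug in this scaling, within a background in which 151, 150 and 166 of 243 miRNAs were below 0. With the percentile over all probes 3, 1 and 1 of the 3 were below 0 with haloperidol, risperidone and clozapine, and all 3 were below the median of all tested miRNAs with each drug. With quantile normalization 2 of the 3 were below that median with each drug, and with normexp 3, 2 and 2.

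rno-miR-103-3p and rno-miR-107-3p have a seed that overlaps that of miR-15/16 when shifted by 1 base, and they differ from each other near the 3′ end. Their sequences show the shared letters (seed, bases 2 to 8, in capitals).
rno-miR-103-3p: aGCAGCAUuguacagggcuauga
rno-miR-107-3p: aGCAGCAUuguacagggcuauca
Their log2 fold changes were 0.14, 0.09 and -0.05 for rno-miR-103-3p (SE 0.19) and 0.16, 0.03 and 0.06 for rno-miR-107-3p (SE 0.21). Every drug group overlapped the controls.

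A list of 19 other miRNAs known to restrain cyclin D, CDK4/6 or E2F genes gives the wider cell-cycle context. Of these, 17 were tested, and miR-124-3p and miR-137-3p were not detected. None passed the threshold in either direction with any drug. With each of the 3 drugs 7 had a log2 fold change above 0 and 10 below, and the median was -0.16, -0.18 and -0.13 with haloperidol, risperidone and clozapine, beside -0.15, -0.15 and -0.17 over all tested miRNAs. Within the list, all 8 let-7 family members had values below 0 with every drug, from -0.48 to -0.04. With the percentile over all probes 7 of 8 were below 0 with haloperidol and 0 of 8 with risperidone and with clozapine, and 7, 6 and 7 of 8 were below the median of all tested miRNAs. The p53-induced rno-miR-34a-5p had 0.68, 0.32 and 0.06 (SE 0.20), with an adjusted limma p of 0.581, 0.521 and 0.917.

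The miRNAs with the most similar pattern over the 8 arrays were found for the 6 members detected on all of them. Likeness was the root mean square difference of log2 levels after each miRNA was centred on its own mean, among 184 other miRNAs. rno-miR-15b-5p was nearest to rno-miR-361-5p (0.0471) and rno-miR-146b-5p (0.0513), and rno-miR-16-5p ranked 15. rno-miR-16-5p was nearest to rno-miR-26a-5p (0.0675) and rno-miR-151-5p (0.0680). rno-miR-322-5p was nearest to rno-miR-20b-5p (0.0455) and rno-miR-20a-5p (0.0497), members of the miR-17 family. Its neighbours at the locus were farther from it, with rno-miR-503-5p at rank 44, rno-miR-322-3p at rank 141 and rno-miR-351-5p at rank 179. rno-miR-503-5p was nearest to rno-miR-532-5p (0.131) and rno-miR-30a-5p (0.144), with rno-miR-322-5p at rank 13, rno-miR-322-3p at rank 124 and rno-miR-351-5p at rank 179. rno-miR-351-5p was nearest to rno-miR-423-5p (0.171) and rno-miR-23a-5p (0.172), with rno-miR-322-3p at rank 28, rno-miR-322-5p at rank 134 and rno-miR-503-5p at rank 143. rno-miR-195-5p, with values near the floor, was nearest to rno-miR-7a-1-3p (0.243) and rno-miR-872-3p (0.276). The measure depends on the size of the variation as well as on its pattern. Over the 8 arrays the SD was 0.22 for rno-miR-322-5p, 0.40 for rno-miR-503-5p and 0.64 for the dim rno-miR-351-5p. A distant rank between such miRNAs therefore need not mean unlike patterns. All these distances share the array scaling and the deviation of control replicate 1.

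The scaling set where 0 lay. With the percentile taken over all probes, the median log2 fold change of all tested miRNAs was 0.35 with risperidone and 0.42 with clozapine. Relative to the median of all tested miRNAs, rno-miR-503-5p was higher by 0.75, 0.72 and 0.51 with haloperidol, risperidone and clozapine, and it stayed above 0 under all 5 scalings and background corrections compared (lowest 0.44, 0.28 and 0.052). rno-miR-322-5p was higher by 0.40, 0.33 and 0.40, but turned below 0 in 1 of the 5 with risperidone and with clozapine. rno-miR-15b-5p stayed below 0 in all 5 with haloperidol and risperidone and was above 0 in 2 with clozapine. rno-miR-351-5p was below 0 in all 5 with haloperidol, and above 0 in 1 with risperidone and with clozapine. rno-miR-351-3p was above 0 in 1 of the 5 for each drug. The near-floor rno-miR-497-5p was above 0 in 5, 4 and 5 of the 5 with haloperidol, risperidone and clozapine. For the near-floor rno-miR-195-5p it was 4, 0 and 5, and for rno-miR-16-5p 1, 0 and 3. An unchanged sign under the 5 was thus also found for members near the floor.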

How the data were processed

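MicroRNA levels were measured in C6 cells on 8 single-colour Agilent rat miRNA arrays, 2 per group. The values the authors deposited are array intensity, linear and not scaled between arrays, with detection and background flags (unit other). The scanner software was Agilent Feature Extraction, version 10.7.3.1, per the file headers. The number of arrays limits the precision.

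Outlier spots were dropped, the mean of the remaining spot signals was taken for each probe, and probes were summed per miRNA, divided by each array's 75th percentile over the 291 probes well above background on all arrays, set to a floor at the 5th percentile of detected scaled values (0.0134) and taken to log2. A miRNA entered the fit where 1 or more groups detected it on both of their arrays (243 of 719, with 476 left out). Group means over all 8 arrays were fitted with limma 3.58.1 in R 4.3.3 (two-sided, 4 residual degrees of freedom), with Benjamini-Hochberg adjustment. The scripts were tested on simulated data.

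The members are those named by the rule, whatever their values, and the members and lists were chosen with earlier results of these data known. Same-numbered arrays share a slide row. The deviations of same-numbered arrays from their group means correlated at 0.162 to 0.714 in the 6 pairs of groups, but the labels name no shared source and there are 2 numbers only. Samples were therefore treated as unpaired. Alternatives changed the scaling, background correction, floor, filter, probe summary and block, and omitted single arrays. Normexp (offset 50) used spot medians. Sequences and loci are from RefSeq tables of GRCr8. Of the listed names, miR-15a, miR-219a-5p and miR-486 were not on the array under those names and were not analysed here. rno-miR-219-5p was not used in place of miR-219a-5p.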

Additional observations from a re-analysis of the deposited data

How the results depend on the processing

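No member passed the threshold under any alternative, and of 192 member values with 1 array left out 12 turned direction. With the percentile over all probes the log2 fold change of rno-miR-195-5p was 0.034 with haloperidol and 0.61 with clozapine. With risperidone rno-miR-15b-5p was then 0.24, rno-miR-16-5p 0.30, rno-miR-497-5p 0.00047, rno-miR-351-3p 0.12, the members' median 0.18 and that of all miRNAs 0.35. With clozapine rno-miR-15b-5p was 0.47, rno-miR-16-5p 0.47, the members' median 0.54 and that of all miRNAs 0.42. With quantile normalization the members' median was 0.023 with haloperidol and 0.070 with clozapine, rno-miR-195-5p was 0.093 and 0.38, and rno-miR-497-5p was 0.098 with risperidone. With normexp and risperidone the members' median was 0.41, that of all miRNAs 0.38, rno-miR-195-5p 0.36, rno-miR-497-5p 0.54, rno-miR-351-5p 0.46 and rno-miR-351-3p 0.49. With normexp and clozapine the members' median was 0.88, that of all miRNAs 0.76, rno-miR-195-5p 0.95, rno-miR-351-5p 0.998 and rno-miR-351-3p 1.03. rno-miR-497-5p with clozapine was 0.69 with all probes, 0.75 with quantile normalization and 1.11 with normexp. With the deposited gene-level signal rno-miR-497-5p was -0.13 with clozapine. The cause of these shifts was not tested. Leaving out 1 array at a time gave -0.33 to 0.15 with haloperidol and -0.28 to 0.20 with clozapine for rno-miR-195-5p. It gave -0.074 to 0.58, -0.15 to 0.51 and -0.10 to 0.55 with haloperidol, risperidone and clozapine for rno-miR-322-5p. rno-miR-497-5p ranged over -0.69 to 0.62 with risperidone and -0.30 to 0.39 with clozapine, rno-miR-16-5p over -0.34 to 0.0071 with haloperidol, and the members' median over -0.29 to 0.073 with haloperidol and -0.26 to 0.0086 with clozapine. The number of miRNAs called was 0 to 5, 0 to 6 and 0 to 7 for the 3 drugs, above 0 only without control replicate 2, and no member was among them. With the replicate block 1 miRNA was called with risperidone, miR-338-5p (log2 fold change -1.17). With clozapine 2 were called, miR-338-5p (-1.26) and miR-3561-5p (-1.31). With haloperidol 0 were called, and 0 members were called with any drug. The smallest adjusted limma p of a member with the block was 0.229, 0.139 and 0.0659 for the 3 drugs.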
